A study of Sus scrofa with 12 samples.

Results

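The genes of the sarcoplasmic reticulum calcium cycle were studied in the Semimembranosus muscle, a large ham muscle, of 12 Italian Large White pigs. The members were chosen by name, as the count table rows whose Ensembl identifier carries the symbol of a calcium pump, a pump inhibitor, a release channel, a calcium storage protein or a protein of the junction. Of 10 symbols listed, 7 were found among the 25880 genes counted, namely ATP2A1, ATP2A2, SLN, CASQ1, TRDN, JPH1 and SRL. The other symbols, RYR1, CASQ2 and PLN, were not analysed here. The 6 pigs of the high IMF group carried a high intramuscular fat (IMF) label and the 6 pigs of the low IMF group a low one. Pigs were 234 to 244 days old in the high IMF group and 229 to 249 days old in the low IMF group, each group was labelled as 3 gilts and 3 barrows, and all pigs shared one environment and one diet. Per the paper, slaughter took place on several days and RNA integrity varied between samples. Neither is given for each pig in the sources used here. No allele, transgene or drug was part of the design, and each sample is a piece of whole muscle from 1 animal.

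The sarcoplasmic reticulum is the calcium store of the muscle fibre. When the membrane of the transverse tubule is depolarized, the ryanodine receptor RYR1 lets calcium out at the triad, the contact between tubule and store, and the myofilaments contract. SERCA pumps then return the calcium to the store, SERCA1 (ATP2A1) in fast fibres and SERCA2 (ATP2A2) in slow fibres and heart, while calsequestrin holds calcium inside it.

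Each pig had between 131048805 and 178013997 counts, and 14262 genes passed the filter on low counts, all 7 members included. These totals are above the input reads that the paper lists for each pig, so a count need not stand for a single read pair. The reason was not tested. The share of all counts that fell on the members lay between 1.13% and 1.61%, and the lowest count of any member in any pig was 27496 (TRDN in pig 7), so that counting error was small beside the spread between pigs. Skeletal muscle fibre genes (ACTA1, CKM, DES and MYBPC1) summed to between 26734 and 53161 CPM (counts scaled to a common library size by the trimmed mean of M-values, TMM). The 6 adipocyte genes summed to between 57.7 and 134.9 CPM in the high IMF group and to between 33.6 and 147.8 CPM in the low IMF group. Counts of Y chromosome genes went against the labelled sex in 6 of the 12 pigs, 2 from the high IMF and 4 from the low IMF group, and the groups below are those of the labels. A mix-up of pigs was not tested. Since whole muscle was sequenced, fewer fibres of a type and less RNA per fibre cannot be told apart.

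The genes lie on the Sscrofa11.1 build as RefSeq places them, matched by symbol. ATP2A1 spans chr3:18545064-18568312 on the plus strand, ATP2A2 chr14:31674659-31744981 on the plus strand, and SLN chr9:36232955-36242405 on the minus strand. CASQ1 spans chr4:90276752-90288990 on the minus strand, TRDN chr1:39180544-39567245 on the plus strand, JPH1 chr4:61628304-61716550 on the plus strand and SRL chr3:38073379-38111936 on the plus strand. Reads were counted on the exons of each gene. Exons of ATP2A1 overlap those of RABEP2 on the opposite strand, and exons of ATP2A2 overlap those of ANAPC7. The strand setting of the counting is not given in the sources used here, so reads of the overlapping stretches cannot be told apart. RABEP2 had at most 3.73% and ANAPC7 at most 4.42% of the counts of its pump in any pig. These shares cover the whole neighbouring gene and do not bound the reads gained or lost where exons overlap.

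Sarcolipin, the product of SLN, is a small membrane protein that lowers calcium uptake by SERCA pumps. Its reading frame is shown because it is so short beside the RNA that is counted. The frame lies in 1 exon at chr9:36233741-36233836 (minus strand, read here from the genome), and its 96 bases stand against 1231 bases of merged exons. The capitals mark the start and the stop codon.
SLN reading frame: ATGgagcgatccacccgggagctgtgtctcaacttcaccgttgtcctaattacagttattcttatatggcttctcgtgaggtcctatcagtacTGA

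Because ATP2A1 and SRL had the highest correlation of any pair of members over the pigs, and ATP2A2 is the other pump, the 300 bases around the annotated start of these genes are shown, from 250 before it to 50 after it. All 3 windows are on the plus strand, at chr3:18544814-18545113 for ATP2A1, chr3:38073129-38073428 for SRL and chr14:31674409-31674708 for ATP2A2. Capitals mark the E-box letters CANNTG, the core bound by myogenic factors, which read the same class of letters on both strands.
ATP2A1 promoter: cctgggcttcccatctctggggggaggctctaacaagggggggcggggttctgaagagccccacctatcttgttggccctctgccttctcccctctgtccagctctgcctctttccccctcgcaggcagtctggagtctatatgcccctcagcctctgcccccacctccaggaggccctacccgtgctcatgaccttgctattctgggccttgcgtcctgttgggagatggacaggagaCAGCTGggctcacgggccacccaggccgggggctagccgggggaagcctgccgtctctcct
SRL promoter: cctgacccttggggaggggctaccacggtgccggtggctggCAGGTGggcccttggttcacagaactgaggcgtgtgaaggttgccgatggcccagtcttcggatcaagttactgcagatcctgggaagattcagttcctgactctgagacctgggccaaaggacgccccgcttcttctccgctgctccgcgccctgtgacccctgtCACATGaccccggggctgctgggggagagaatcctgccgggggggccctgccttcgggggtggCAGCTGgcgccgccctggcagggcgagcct
ATP2A2 promoter: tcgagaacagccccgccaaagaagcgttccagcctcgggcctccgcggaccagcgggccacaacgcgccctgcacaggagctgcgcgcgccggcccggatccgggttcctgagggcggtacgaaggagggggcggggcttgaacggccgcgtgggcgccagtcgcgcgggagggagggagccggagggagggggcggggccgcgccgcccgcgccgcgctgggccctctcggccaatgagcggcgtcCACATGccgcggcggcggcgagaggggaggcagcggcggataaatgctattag
The E-box letters occur 1 time in the ATP2A1 window, 3 times in the SRL window and 1 time in the ATP2A2 window, none of them overlapping the other motifs searched. Of 19503 protein-coding promoters of this length, 67.8% hold at least 1 E-box, so that the match sets none of these genes apart. GGGCGG, the GC box, searched on both strands, occurs 1 time in ATP2A1, 1 time in SRL and 4 times in ATP2A2, and in 50.6% of all promoters. The windows also differ in base composition. The ATP2A2 window has 44 CpG pairs and 75.3% G and C, against 8 and 65% in ATP2A1 and 16 and 66.7% in SRL, and the median of all promoters is 58.7%. TATAAA was found in neither pump window nor in SRL, and the MEF2 motif in none of the 7 members' windows (10.9% and 2.88% of all promoters hold them, in that order).

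Levels were compared between genes per kilobase of RefSeq merged exons. SLN was the most abundant member on this scale, with a median of 3663 CPM per kilobase over the 12 pigs (range 2721 to 4857). ATP2A1 followed with a median of 1456 (range 941 to 2033), and CASQ1, the skeletal calsequestrin that stores calcium in the lumen, with 499.9 (range 423.1 to 722.6). The order of these genes was the same in all 12 pigs, and CASQ1 stood at least 3.98-fold above JPH1, the next gene, in every pig. Before division by length, ATP2A1 stood first, with a mean of 5181 CPM in the high and 7137 CPM in the low IMF group. SLN had 4878 and 4244 CPM in the same order, so the place of SLN above ATP2A1 depends on the length used.

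The lower part of the order was not fixed. JPH1, a junctophilin that ties the store to the transverse tubule, had a median of 91.3 CPM per kilobase (range 77.5 to 115.7). ATP2A2 had a median of 77.3 (range 43.9 to 122.3), and JPH1 was above it in 7 of the 12 pigs. TRDN, triadin, which anchors calsequestrin to the release channel, had a median of 64.1 (range 45.9 to 98.4) and was below ATP2A2 in 8 of the 12 pigs. The order of JPH1, ATP2A2 and TRDN thus changed between pigs, and levels were not tested between genes. SRL, sarcalumenin, a calcium-binding glycoprotein of the lumen, was lowest on this scale at 48.2 (range 32.4 to 61.5), below TRDN in 11 of the 12 pigs. It also had the longest merged exons, 11450 bases from 9 RefSeq transcripts, against 5525 bases for TRDN. Before division by length, SRL had a mean of 459.3 CPM in the high and 584.5 CPM in the low IMF group. TRDN had 414.7 and 343.8 CPM in the same order, so the place of SRL depends on the length used.

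The study asked which muscle genes differ with IMF content, and low IMF was compared with high IMF for each member with edgeR's quasi-likelihood test. No member was a DEG (adjusted p at or under 0.05 and log2FC of at least 0.58 in size), and 0% of the 14262 genes tested were DEGs in this fit. Without adjustment, 2 members had a p at or under 0.05, ATP2A1 and SRL, both with higher values in the low IMF group, beside 10.4% of all genes tested in either direction and 5.38% in that direction. Log2FC is given as low over high IMF. The median log2FC was 0.06 over the 7 members and -0.01 over all genes tested.

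ATP2A1, the pump of fast fibres, differed most. The high IMF group ranged from 4059 to 6378 CPM, with a median of 5085, and the low IMF group from 6188 to 8769 CPM, with a median of 6965. Of the low IMF pigs, 5 lay above every high IMF pig on this TMM scale, and the groups overlapped only because pig 2 (high IMF) exceeded pig 11 (low IMF). As a share of all counts the overlap was wider, with pigs 1 and 2 (high IMF) both above pigs 10 and 11 (low IMF). Pig 1 had 936299 of 147940455 counts and pig 11 had 1075051 of 173241982. In all 14262 genes, 0.659% had groups with no overlap, and no member was among them. The means were 5181 ± 895 CPM (SD, n = 6) and 7137 ± 890 CPM (SD, n = 6). The log2FC was 0.46 ± 0.13 (SE), a fold of 1.38, with an unadjusted p of 0.00343 and an edgeR adjusted p of 0.367, and an exact two-sided permutation test of the mean log2 CPM gave p = 0.00433. Of all genes tested, 5.74% had a log2FC at least this high. With DESeq2's Wald test, the tool of the study, the adjusted p was 0.0559 for the genes kept by the filter and 0.0624 for every gene with a count, with a log2FC of 0.47 in both. No member was a DEG with that tool, and 0.315% of the latter genes were.

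SRL showed the same order of groups. High IMF pigs had from 370.4 to 567.5 CPM (median 435.4) and low IMF pigs from 450.1 to 703.8 CPM (median 584.1), so 3 low IMF pigs lay above the whole high IMF group. The log2FC was 0.35 ± 0.14 (SE), with an unadjusted p of 0.0246 and an edgeR adjusted p of 0.441, and the exact permutation test gave p = 0.0346. JPH1 ranged from 331.9 to 451.4 CPM (median 368.8) in the high and from 361.1 to 495.7 CPM (median 408.0) in the low IMF group, with a log2FC of 0.16 ± 0.11 (SE) and an edgeR adjusted p of 0.63. The JPH1 groups overlapped over most of their range.

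ATP2A2, the pump of slow fibres, varied most between pigs, with a coefficient of variation of 33.2% and a 2.79-fold span from pig 12 to pig 5. It ranged from 417.5 to 917.2 CPM (median 724.4) in the high IMF group and from 329.0 to 901.9 CPM (median 478.2) in the low IMF group. Pigs 4, 5 and 6 (high IMF) and pigs 7 and 11 (low IMF) were the highest, so the groups overlapped almost wholly. The log2FC was -0.30 ± 0.25 (SE), with an edgeR adjusted p of 0.703.

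The pump inhibitor SLN had from 3460 to 5979 CPM (median 4830) in the high and from 3349 to 5530 CPM (median 4327) in the low IMF group. The log2FC of SLN was -0.20 ± 0.15 (SE), with an edgeR adjusted p of 0.663. TRDN had from 341.2 to 543.4 CPM (median 399.7) in the high and from 253.5 to 459.3 CPM (median 321.8) in the low IMF group, where 4 pigs lay below every high IMF pig. The log2FC of TRDN was -0.27 ± 0.16 (SE), with an edgeR adjusted p of 0.579.

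CASQ1 was the member nearest to equality between groups, from 1209 to 1759 CPM (median 1444) in the high and from 1235 to 2065 CPM (median 1414) in the low IMF group. The log2FC of CASQ1 was 0.06 ± 0.14 (SE), with an edgeR adjusted p of 0.915. The sign was not fixed, since it was -0.04 without pig 7, the pig with the highest TMM-scaled CPM of CASQ1.

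**Figure D1:**
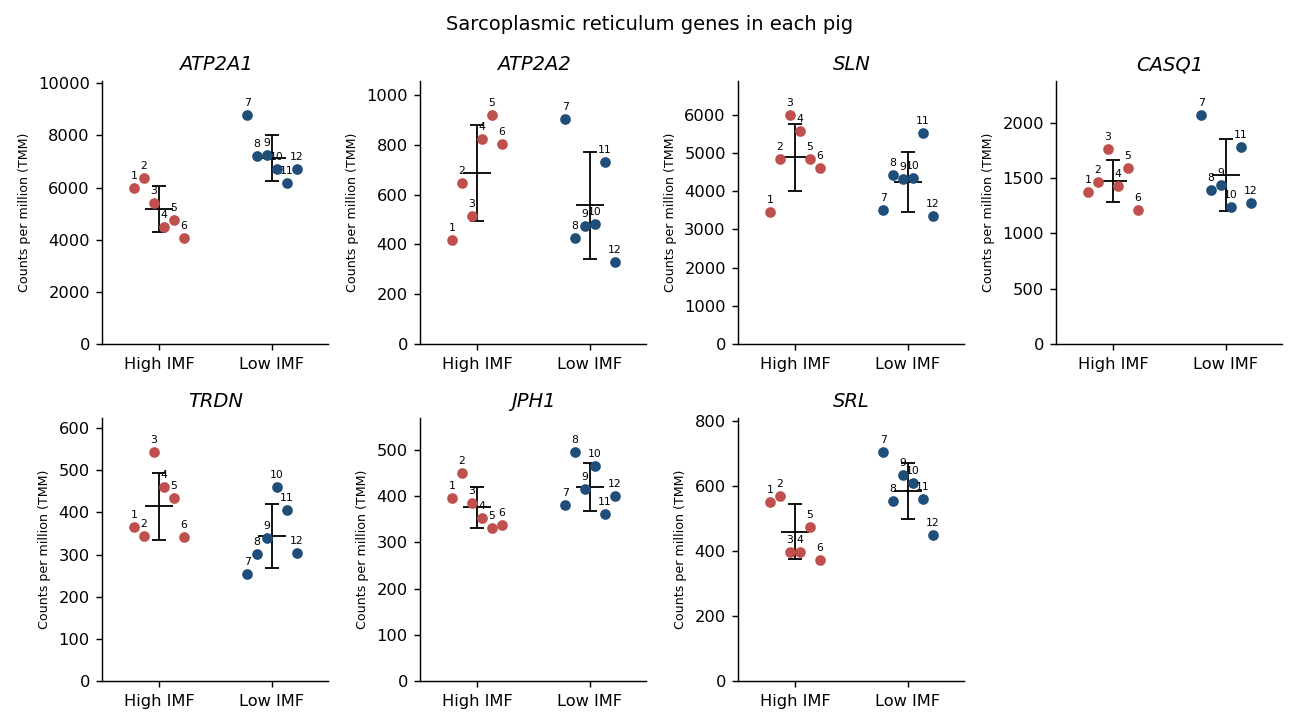
CPM of each member (y axis, TMM-scaled, starting at 0) in the high and the low IMF group. Points are pigs, numbered 1 to 12, and bars are the mean ± SD of 6 pigs. ATP2A1 shows 5 of the 6 low IMF pigs above all high IMF pigs, whereas ATP2A2 and CASQ1 overlap widely.

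The ratio of one gene to another within a pig does not depend on the scaling between libraries. The log2 ratio of ATP2A1 to ATP2A2 ranged from 2.34 to 3.84 (median 2.88) in the high and from 3.08 to 4.35 (median 3.87) in the low IMF group. In counts, the fast pump stood 7.74-fold above the slow pump on average in high IMF pigs and 13.5-fold in low IMF pigs. The log2 difference was 0.80, higher in the low IMF group (exact two-sided permutation test over 924 arrangements, p = 0.0476, the same after adjustment over the 2 ratios tested). This call did not hold throughout. Without any 1 of pigs 4, 5, 6, 8, 9, 10 or 12 the difference lay between 0.68 and 0.79 and the exact p between 0.0628 and 0.0887.

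The log2 ratio of SLN, the inhibitor, to ATP2A1 ranged from -0.79 to 0.31 (median 0.08) in the high and from -1.32 to -0.16 (median -0.73) in the low IMF group. In counts there were 0.94 of SLN for each of ATP2A1 in high and 0.59 in low IMF pigs. Pigs 3, 4, 5 and 6 of the high IMF group lay above every low IMF pig. The log2 difference was -0.67 (exact two-sided permutation test, p = 0.0216, adjusted p = 0.0433 over the 2 ratios), and with each pig left out in turn it stayed between -0.81 and -0.56 with an unadjusted exact p of at most 0.0433. Adjusted over the 2 ratios, the exact p was between 0.0628 and 0.0823 without any 1 of pigs 4, 5, 6, 8, 9, 10 or 12, so that this call did not hold throughout either.

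Each ratio moved over the pigs with the fibre genes or with base composition. Over the 12 pigs, with p-values adjusted over 6 relations, the log2 ratio of ATP2A1 to ATP2A2 followed the mean of the slow fibre genes with r = -0.802 (permutation p = 0.00189, adjusted p = 0.00378) and rho = -0.825 (permutation p = 0.0016, adjusted p = 0.00374), and r was -0.91 without the 2 farthest pigs. ATP2A2 itself follows these genes closely, as described further on. With the GC contrast, the tilt of a library towards genes rich in G and C that is also described further on, this ratio had r = 0.627 (permutation p = 0.0307, adjusted p = 0.0461) and rho = 0.517 (permutation p = 0.0884, adjusted p = 0.106), and r was 0.681 without the 2 farthest pigs. The log2 ratio of SLN to ATP2A1 followed the GC contrast with r = -0.862 (permutation p = 0.0004, adjusted p = 0.0012) and rho = -0.811 (permutation p = 0.00187, adjusted p = 0.00374), and r was -0.83 without the 2 farthest pigs. With the slow genes it had r = 0.348 (permutation p = 0.265, adjusted p = 0.265) and rho = 0.42 (permutation p = 0.176, adjusted p = 0.176), and r was 0.833 without the 2 farthest pigs. Against the slow minus fast score, the ATP2A1 to ATP2A2 ratio had r = -0.881 (permutation p = 9e-05, adjusted p = 0.00054) and rho = -0.846 (permutation p = 0.00095, adjusted p = 0.00374), with r = -0.8 without the 2 farthest pigs. The SLN to ATP2A1 ratio had r = 0.583 with that score (permutation p = 0.0453, adjusted p = 0.0544) and rho = 0.524 (permutation p = 0.0839, adjusted p = 0.106), with r = 0.389 without the 2 farthest pigs. These relations were tested after the values were seen, and their part in the group differences was not tested.

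The ratios of CASQ1 to CASQ2, SLN to PLN and PLN to ATP2A2 were not analysed here.

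**Figure D2:**
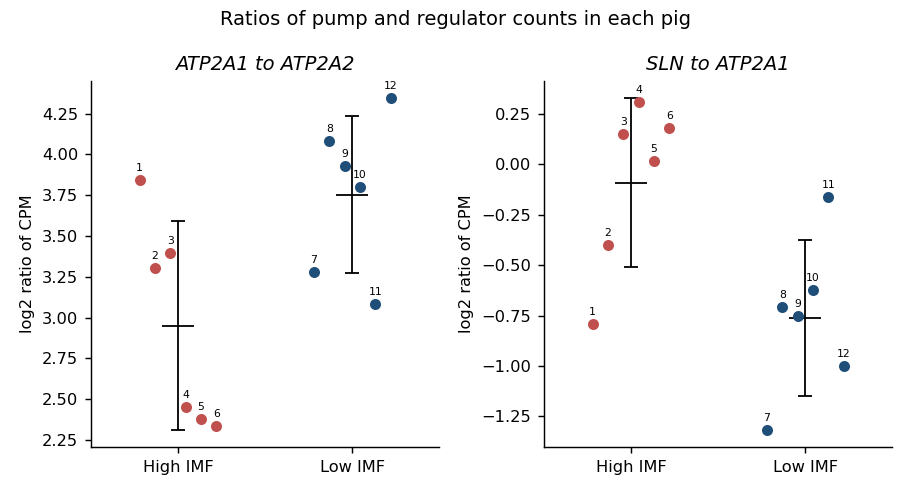
Log2 ratio of CPM (y axis) of ATP2A1 to ATP2A2 and of SLN to ATP2A1 in each pig of the high and low IMF groups. Points are pigs with their numbers, and bars are the mean ± SD of 6 pigs. The mean ATP2A1 to ATP2A2 ratio is 2.95 in the high and 3.75 in the low IMF group, and the mean SLN to ATP2A1 ratio is -0.09 and -0.76.

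Base composition moved with some of the members and with the groups. The GC contrast of a pig is the median deviation from the gene mean, in log2, of the quartile of genes with the most G and C in their exons minus that of the quartile with the least. It ranged from -0.41 to 0.22 (median -0.17) in the high and from -0.07 to 0.31 (median 0.14) in the low IMF group, a difference of 0.27 (exact two-sided permutation test, p = 0.0476). Without any 1 of pigs 3, 4, 5, 6, 7, 8, 9, 10 or 12 the exact p was between 0.0584 and 0.0931. Over all genes with a GC value, the median log2FC went from -0.13 in the quartile poorest in G and C, through -0.04 and 0.06, to 0.12 in the richest quartile.

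The exons of SRL hold 60.8% G and C, those of ATP2A1 59.8%, CASQ1 55.6%, JPH1 50.3%, ATP2A2 45%, SLN 44.8% and TRDN 37.9%. The 4 members with a positive log2FC are thus the 4 richest in G and C (CASQ1 with a sign that was not fixed), and across the 7 genes, which are not independent replicates, log2FC and GC content had r = 0.914. Over the 12 pigs, ATP2A1 followed the GC contrast with r = 0.851 (permutation p = 0.00047, adjusted p = 0.00329 over 7 members) and rho = 0.839 (permutation p = 0.00094, adjusted p = 0.00658). SRL followed it with r = 0.832 (permutation p = 0.00113, adjusted p = 0.00395) and rho = 0.769 (permutation p = 0.00474, adjusted p = 0.0138). TRDN went the other way with r = -0.739 (permutation p = 0.00653, adjusted p = 0.0152) and rho = -0.762 (permutation p = 0.00593, adjusted p = 0.0138). JPH1 had r = 0.676 (permutation p = 0.017, adjusted p = 0.0298) and rho = 0.608 (permutation p = 0.0409, adjusted p = 0.0572), and SLN r = -0.642 (permutation p = 0.0255, adjusted p = 0.0357) and rho = -0.636 (permutation p = 0.0298, adjusted p = 0.0522), so that both passed by r and neither by rho. ATP2A2 had r = -0.315 (permutation p = 0.314, adjusted p = 0.366) and rho = -0.287 (permutation p = 0.367, adjusted p = 0.428), and CASQ1 r = 0.05 (permutation p = 0.876, adjusted p = 0.876) and rho = 0.147 (permutation p = 0.652, adjusted p = 0.652). Without the 2 pigs farthest from the median contrast, r was 0.723 for JPH1, -0.578 for SLN, -0.389 for ATP2A2 and 0.086 for CASQ1. It was then 0.887 for ATP2A1, 0.698 for SRL and -0.845 for TRDN, and on values centred on their group means it was 0.766, 0.733 and -0.651.

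The comparison of groups was therefore also made with GC terms, which were chosen after the values were seen. With each pig corrected for exon GC by a lowess curve, the log2FC of ATP2A1 was 0.35 (unadjusted p = 0.00579, adjusted p = 0.487 in edgeR), that of SRL 0.23 (unadjusted p = 0.0527) and that of CASQ1 -0.03. With the GC contrast as a term in edgeR's fit, ATP2A1 had a log2FC of 0.25 ± 0.13 (SE, unadjusted p = 0.0738), SRL 0.12 ± 0.13 (unadjusted p = 0.352), JPH1 0.03 ± 0.12, SLN -0.003 ± 0.164 and TRDN -0.01 ± 0.16. ATP2A2 changed least among the members with a negative log2FC, at -0.22 ± 0.33 (SE). The ATP2A1 to ATP2A2 difference was 0.62 after the lowess correction (exact permutation p = 0.0693) and the SLN to ATP2A1 difference -0.49 (exact permutation p = 0.0303). What sets the GC contrast of a pig was not tested.

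**Figure D3:**
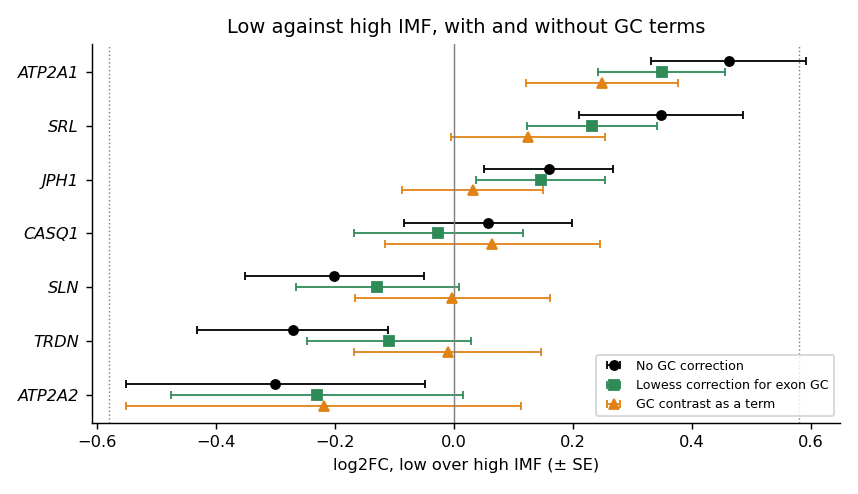
Log2FC of each member, low over high IMF (x axis), with bars of ± 1 SE, from edgeR without a GC term (circles), after the lowess correction for exon GC (squares) and with the GC contrast as a term (triangles). Dotted lines mark a log2FC of 0.58 in size, which no member reached, and ATP2A1 goes from 0.46 through 0.35 to 0.25.

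Links between the members were examined as correlations of log2 CPM over the 12 pigs, for all 21 pairs. One pair passed an adjusted p of 0.05, ATP2A1 with SRL, at r = 0.866 (permutation p = 0.00029, adjusted p = 0.00609) and rho = 0.86 (permutation p = 0.00071, adjusted p = 0.0149). On the TMM scale, pig 7 was the highest and pig 6 the lowest in both genes. Of all other genes tested, 0.54% correlated with ATP2A1 and 0.351% with SRL at least this highly. Without pigs 4 and 6, the farthest from the median of ATP2A1, r was 0.747 (adjusted p = 0.146 over 21 pairs by permutation), on values centred on group means it was 0.772 (adjusted p = 0.0892 by permutation), and on residuals from a line on the GC contrast it was 0.542 (adjusted p = 0.287 by permutation). Within the groups r was 0.846 in the high and 0.651 in the low IMF pigs. The pair was called in the pooled pigs and not in these settings.

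SLN with TRDN came next, with r = 0.734 (permutation p = 0.00661, adjusted p = 0.0694) and rho = 0.699 (permutation p = 0.014, adjusted p = 0.0791). These are the inhibitor of the pump and the anchor of calsequestrin, and both are poor in G and C. Within groups r was 0.706 in the high and 0.664 in the low IMF pigs, without pigs 3 and 12 it was 0.603, and on GC residuals 0.502. With pigs left out, the adjusted p ran from 0.0307 without pig 1 to 0.172 without pig 3, and it was under 0.05 only without pig 1 or pig 10 (permutation tests).

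JPH1 had an r of opposite sign with each pump, and neither pair passed the correction. With ATP2A1 it had r = 0.647 (permutation p = 0.023, adjusted p = 0.143) and rho = 0.692 (permutation p = 0.0151, adjusted p = 0.0791), and with ATP2A2 r = -0.641 (permutation p = 0.0273, adjusted p = 0.143) and rho = -0.734 (permutation p = 0.00888, adjusted p = 0.0791). On GC residuals the former was 0.186 and the latter -0.611. Without the 2 pigs farthest from the median of the pump, the former was 0.473 and the latter -0.681, and within groups the former was 0.907 in the high and 0.004 in the low IMF pigs and the latter -0.623 and -0.544. With pigs left out, the adjusted p of the former ran from 0.0279 without pig 7 to 0.296 without pig 5 (permutation tests). The pumps themselves had r = -0.374 (permutation p = 0.231, adjusted p = 0.405) and rho = -0.364 (permutation p = 0.247, adjusted p = 0.346). Of the 21 pairs, 10 had a positive and 11 a negative r.

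**Figure D4:**
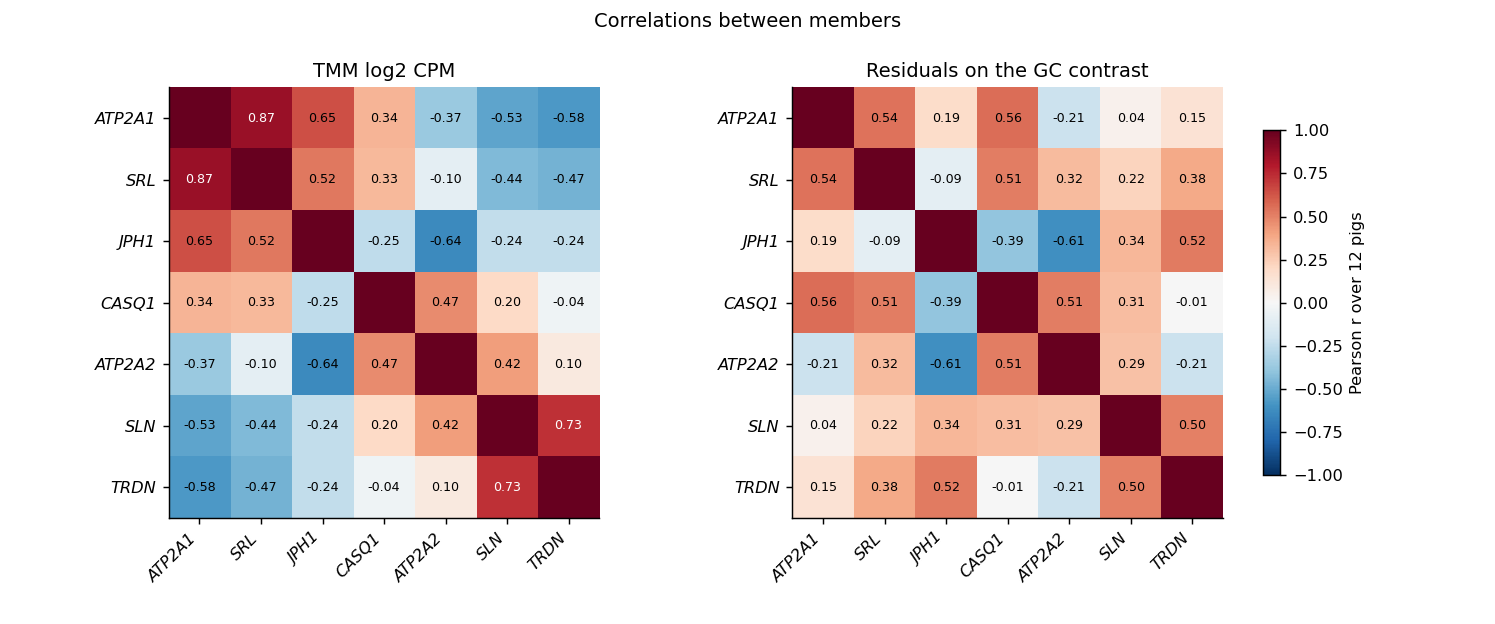
Pearson r over 12 pigs between the 7 members, on TMM log2 CPM (left) and on residuals from a line on the GC contrast of each pig (right), with red for positive and blue for negative r. ATP2A1 with SRL is 0.87 on the left and 0.54 on the right, and ATP2A2 with JPH1 is -0.64 and -0.61.

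Fibre gene levels were summarised from 5 slow fibre genes (TNNT1, TNNI1, TNNC1, MYL2 and MYL3) and 6 fast fibre genes (TNNT3, TNNI2, TNNC2, MYL1, ACTN3 and MYBPC2), as the mean z-score of the slow genes minus that of the fast genes. ATP2A2 had r = 0.771 with this score (permutation p = 0.00228, adjusted p = 0.016 over 7 members) and rho = 0.839 (permutation p = 0.00112, adjusted p = 0.00784). JPH1 had r = -0.718 (permutation p = 0.0084, adjusted p = 0.0294) and rho = -0.741 (permutation p = 0.00813, adjusted p = 0.0285). ATP2A1 had r = -0.687 (permutation p = 0.0126, adjusted p = 0.0294) and rho = -0.462 (permutation p = 0.135, adjusted p = 0.236). Without the 2 pigs farthest from the median score, r was 0.771 for ATP2A2, -0.523 for JPH1 and -0.315 for ATP2A1. The adjusted p by permutation was then 0.0538, 0.392 and 0.522 in that order, so none of these calls held without those pigs. The r of ATP2A1 fell most. On values centred on group means, and on GC residuals, ATP2A2 alone kept its call.

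The score was taken apart after the values were seen. Against the slow fibre genes alone, ATP2A2 had r = 0.961 (permutation p = 1e-05, the smallest these resamples can give, adjusted p = 7e-05) and rho = 0.958 (permutation p = 1e-05, adjusted p = 7e-05), and r was 0.954 without the 2 pigs farthest from the median, 0.971 on values centred on group means and 0.962 on GC residuals. The relation held on each of these scales. Against the fast fibre genes alone, CASQ1 had the highest r, 0.756 (permutation p = 0.00404, adjusted p = 0.0283), with rho = 0.678 (permutation p = 0.0187, adjusted p = 0.0734) and r = 0.469 without the 2 farthest pigs. With the slow genes CASQ1 also had a positive r, 0.618 (permutation p = 0.0322, adjusted p = 0.113), and rho = 0.622 (permutation p = 0.0343, adjusted p = 0.08). Its r with the slow minus fast score was 0.03, so CASQ1 was not particular to the fast genes. ATP2A1 had r = 0.598 with the fast genes (permutation p = 0.0388, adjusted p = 0.0904), with rho = 0.476 (permutation p = 0.12, adjusted p = 0.28), and r = -0.001 without the 2 farthest pigs. Among the fast genes its r ran from -0.295 with MYL1, a fast myosin light chain, to 0.945 with MYBPC2, the fast myosin-binding protein C. The slow minus fast score was 0.47 ± 1.10 in the high and -0.47 ± 0.58 in the low IMF group (SD, n = 6), a difference of -0.95 (exact two-sided permutation p = 0.0974). The groups overlapped in the slow genes (score of 0.19 ± 0.75 in the high and -0.19 ± 1.20 in the low IMF group, SD, n = 6, exact two-sided permutation p = 0.528), and in the fast genes (exact permutation p = 0.208).

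**Figure D5:**
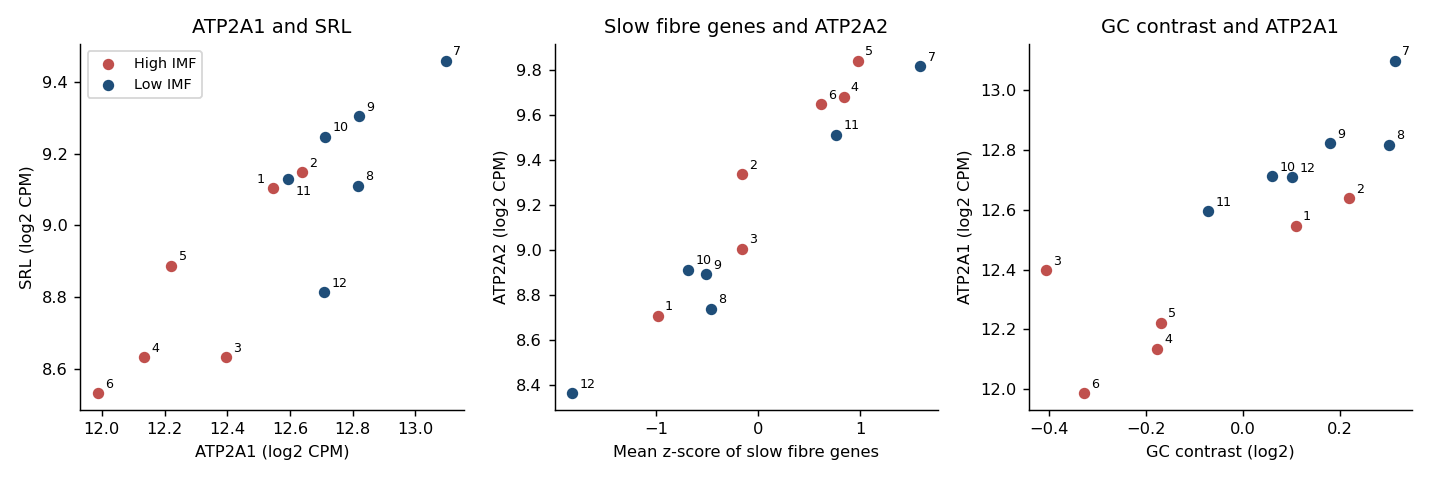
Each point is a pig with its number, coloured by IMF group. Left, SRL against ATP2A1 (log2 CPM, r = 0.866), middle, ATP2A2 (log2 CPM) against the mean z-score of 5 slow fibre genes (r = 0.961), right, ATP2A1 (log2 CPM) against the GC contrast (log2, r = 0.851), and pigs of both groups lie along each line of points.

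The genes most like each member, among named genes by Pearson r of log2 CPM over 12 pigs, differed between the pumps. For ATP2A2 they were TNNC1 (0.952), the calcium-binding troponin of slow fibres, TNNT1 (0.95), slow troponin T, and MYL2 (0.945), a slow myosin light chain. For ATP2A1 they were MYBPC2 (0.945), MEF2D (0.932), a muscle transcription factor, and NAPA (0.932), a protein of vesicle fusion. SRL was most like CAND2 (0.949), UBQLN4 (0.94) and MYPOP (0.934), none of them sarcoplasmic reticulum proteins by name. CASQ1 was most like AK1 (0.897), a muscle adenylate kinase, MRPL49 (0.889) and CYS1 (0.887). For SLN the nearest were RHOQ (0.929), KLHDC2 (0.908) and OAZ1 (0.897), for TRDN SUB1 (0.926), ZFP62 (0.913) and COPS5 (0.909), and for JPH1 OLFM1 (0.941), HCN2 (0.918) and BCORL1 (0.888). On GC residuals the value for ATP2A2 with TNNC1 was 0.951, and that for ATP2A1 with MYBPC2 was 0.795.

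Other genes of the reticulum and the triad were counted from a list of 50, of which 41 were found and tested. None was a DEG with edgeR or with DESeq2's Wald test. Of all genes, 0% of those tested with edgeR and 0.315% of those with a count in DESeq2 were DEGs. At an unadjusted p at or under 0.05, 6 were higher in the low and 0 in the high IMF group, a share to be read against 5.38% and 5.04% of all genes tested. The median log2FC of the 41 was 0.09, against -0.01 for all genes, and 26 were positive. The 5 with the smallest p were SYPL2 (mitsugumin 29, a triad protein), CALR (calreticulin, a calcium store of the endoplasmic reticulum), CACNG1 and CACNB1 (subunits of the voltage sensor) and CAMK2B (a calmodulin-dependent kinase).

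SYPL2 had 226.8 ± 15.4 CPM (SD, n = 6) in the high and 266.1 ± 26.2 CPM in the low IMF group, which gave a log2FC of 0.23 with an unadjusted p of 0.0234 and an edgeR adjusted p of 0.441. CALR had 56.7 ± 7.41 and 71 ± 12.1 CPM in the same order, a log2FC of 0.32. HRC, a histidine-rich calcium-binding protein of the lumen, was the sixth, with 211.1 ± 19.0 and 249.0 ± 34.8 CPM and a log2FC of 0.24. The exons of SYPL2 hold 57.5%, of CALR 51.9%, of CACNG1 58%, of CAMK2B 62.9%, of CACNB1 61.1% and of HRC 59.5% G and C, and the part of base composition in their values was not tested.

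The 4 abundant genes of the list named next had no unadjusted p at or under 0.05. PPP1R3A, which holds protein phosphatase 1 on glycogen and the reticulum, had 1425 ± 181 CPM (SD, n = 6) in the high and 1361 ± 220 CPM in the low IMF group, with a log2FC of -0.07 and an edgeR adjusted p of 0.892. BIN1, which shapes the transverse tubule, had a log2FC of 0.09, HOMER1, a scaffold, 0.19, and TMEM38A, a potassium channel of the reticulum, -0.09.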

How the data were processed

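Counts per Ensembl gene were deposited by the authors for 12 pigs, as whole numbers and not normalized. Per the labels and the study's methods, stranded libraries of polyadenylated RNA were read as pairs, trimmed with Trimmomatic, aligned with HISAT2 to the pig genome (Sscrofa11.1), assembled with StringTie and counted with HTSeq. The annotation release, the strand setting, the treatment of reads with several alignments and the pigs that shared a lane are not given in the sources used here. Totals were between 131048805 and 178013997 counts per pig.

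Symbols came from a table of Ensembl gene names. Genes kept by filterByExpr (14262) were fitted with the quasi-likelihood test of edgeR (version 4.0.16, R 4.3.3) on TMM-scaled counts, low over high IMF, with p-values adjusted by the Benjamini-Hochberg method over all of them. DESeq2 1.42.0 and limma 3.58.1 served as alternatives, with other scalings and filters, labelled sex as a term, and each pig left out. Log2 CPM used a prior count of 2. Exact permutation tests ran over 924 arrangements, and correlations over 12 pigs used 100000 resamples. All tests were two-sided and p-values measure the spread between pigs. Lengths, positions, GC content and sequences came from RefSeq on Sscrofa11.1, matched by symbol, with a GC value for 11083 of 11837 named genes tested. The main edgeR fit was tried on simulated counts. The permutation tests and the p-value adjustment were compared with another implementation on made-up values. The other steps were not tested in this way.

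The members and lists were chosen with earlier results of these data known, and the genes named are all members, the 5 genes with the smallest p and the 5 with the highest mean count of the reticulum and triad list, and the 3 named genes most like each member. A gene of this rule is not reported here. HRC was named after its values were seen. GC terms were added after the values were seen.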

Additional observations from a re-analysis of the deposited data

How the results depend on the processing

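No member and none of the 41 other reticulum and triad genes was called under any of the 10 alternative fits or with any pig left out. Of all genes, DESeq2's Wald test called 57 of the 14262 kept by the filter and 64 of the 20341 with a count. The fits without pig 5 or pig 10 called 1 gene each. All other fits called no gene at all, so the lack of calls there is not particular to the members. The log2FC of each member except CASQ1 kept its sign in all of these fits. With the GC contrast as a term, only ATP2A1 had a log2FC larger in size than its SE (0.25 ± 0.13). SLN (-0.003 ± 0.164), TRDN (-0.01 ± 0.16) and JPH1 (0.03 ± 0.12) lay well within their SE there, so a kept sign says little. CASQ1 was -0.026 after the lowess correction for exon GC and between -0.041 and 0.12 with pigs left out. The ATP2A1 to ATP2A2 difference lost its call as a difference of medians (0.99, exact permutation p = 0.0541) and after the lowess correction (0.62), and lay between 0.68 and 0.98 with pigs left out. The SLN to ATP2A1 difference kept an unadjusted exact p under 0.05 in all 16 alternatives run. Adjusted over the 2 ratios, its exact p was under 0.05 in 7 of the 16, and was 0.0541 as a difference of medians, 0.0606 after the lowess correction and between 0.0628 and 0.0823 without any 1 of 7 of the pigs. The number of member pairs past the adjusted p, 1 of 21, was 3 on total-count CPM, 0 on values centred on group means, within either group, without the 2 pigs farthest from the median, on GC residuals and after the lowess correction, and from 1 to 2 with pigs left out. The r of ATP2A1 with ATP2A2 was 0.437 within the low IMF group, and that of ATP2A1 with SLN was 0.0419 on GC residuals. The number of members past the adjusted p with the fibre score, 3 of 7, was 1 on centred values, with the slow genes alone, with the fast genes alone and on GC residuals, and 0 without the 2 farthest pigs and after the lowess correction. With the sign of the fast score turned, ATP2A2 had r = -0.248. The GC contrast differed by 0.22 to 0.34 with pigs left out. The settings that leave pigs out hold fewer pigs, and the cause of these changes was not tested. No paired analysis was possible because the groups share no pig numbers. Depth limits none of the members, the lowest count being 27496.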

Other observations

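Some pairs of members had an r of opposite sign in the groups, and the difference between groups was not tested. ATP2A2 with CASQ1 had r = 0.92 in the low IMF pigs (rho = 0.657, exact permutation p = 0.0139 and 0.175) and r = -0.17 in the high IMF pigs (rho = 0.0857, exact permutation p = 0.749 and 0.919). CASQ1 with TRDN had r = 0.802 in the high IMF pigs (rho = 0.714, exact permutation p = 0.0569 and 0.136) and r = -0.435 in the low IMF pigs (rho = -0.486, exact permutation p = 0.383 and 0.356). The smallest adjusted p over the 21 pairs was 0.35 in the high and 0.292 in the low IMF group (exact permutation tests), so none of these correlations passed the correction. On TMM-scaled values, pig 7 of the low IMF group was highest of all 12 pigs in ATP2A1, SRL and CASQ1, and lowest in TRDN. It was also highest in both the slow and the fast fibre score (1.59 and 1.41). As a share of all counts, pig 7 was not highest in ATP2A1, SRL or CASQ1. For ATP2A1 it had 951125 of 133915596 counts, whereas pig 8 had 1083397 of 137937371. The paper reports the lowest share of uniquely mapped reads for this pig.

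PVALB, parvalbumin, a soluble calcium buffer of fast fibres, was chosen after its values were seen. It had 60.8 ± 35.7 CPM (SD, n = 6) in the high and 105.5 ± 34.6 CPM in the low IMF group, which gave a log2FC of 0.80 with an unadjusted p of 0.0558 and an edgeR adjusted p of 0.49. Its exons hold 56.6% G and C.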
